A study of Mus musculus with 12 samples.

Results

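Gene expression was compared between prostate epithelial cells that carry the surface protein LY6D and cells that lack it, over 3 sorted populations and 4 wild-type, hormone-naïve male mice. The comparison used 12 of the 12 arrays of the series, 6 labelled LY6D+ and 6 labelled LY6D-. They form 6 pairs, each from 1 gate and 1 mouse, chosen by the gate and mouse number in the sample labels. All cells were sorted as negative for the lineage markers CD45, CD31 and Ter119. Luminal pairs (low Sca1 and low CD49f) came from mice 4 and 5, Sca1-high pairs (CD49f-positive) from mice 1 and 5, and basal pairs (intermediate Sca1, CD49f-positive) from mice 3 and 5. Each gate therefore had 2 pairs and equal weight, and mouse 5 gave 3 of the 6 pairs. The mice's strain and age are not given in the sources used here. Values are log2 signals, and a difference is LY6D+ minus LY6D- on that scale, given with its moderated SE from limma (n = 6 pairs).

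LY6D is a small lipid-anchored surface protein of the LY6/uPAR family, which also holds Sca1, PSCA and the urokinase receptor. In the mouse prostate it has been used to mark luminal cells with progenitor properties. Prostate epithelium has a basal layer, which expresses Krt5 and Krt14 and is anchored to the basement membrane by hemidesmosomes, and a luminal layer, which expresses Krt8 and Krt18 and makes the secretion of the gland.

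The arrays differed in ways that bear on the pairs. Between 17608 and 19214 genes per array exceeded 2.98, the 25th percentile of all values. The 3 lowest arrays were of mouse 5: luminal LY6D- (17608), basal LY6D- (17879) and basal LY6D+ (18028), against 18555 or more in the other 9. The luminal pair of mouse 5 joined an array with 18739 such genes to one with 17608, and its differences had a median of 0.14 over all genes, the farthest from 0 of the 6 pairs. In Sca1-high cells of mouse 5, the LY6D+ library had the lowest median correlation with the other arrays (0.807), Krt8 at 6.48 and Krt18 at 5.30, where the other 11 arrays reached at least 8.45 and 10.02. Where leaving out this pair turned a mean difference or list median printed here, or moved it by over 1.5 times, the value over the other 5 pairs is given as well.

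The transcript of the sorted protein did not follow the sort label. Ly6d signal ranged from 4.70 to 5.96 in the LY6D+ libraries (median 5.37) and from 4.61 to 7.37 in the LY6D- libraries (median 5.04). It was higher in the LY6D+ library in 3 of 6 pairs: luminal mouse 5 (0.58), Sca1-high mouse 1 (0.58) and basal mouse 3 (1.08). In the other 3 pairs the differences were -0.30 (luminal mouse 4), -0.06 (basal mouse 5) and -2.67 (Sca1-high mouse 5). The mean difference was -0.13 ± 0.44 (95% interval -1.14 to 0.88), with a two-sided p of 0.906 in an exact sign-flip test over 6 pairs, which can give no p below 0.03125. Without the Sca1-high pair of mouse 5 the mean was 0.38, on the other side of 0. LY6D+ and LY6D- below are the sort labels, which refer to the protein.

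The transcripts of the other sort proteins differed by pair as well. Itga6, which encodes CD49f, was higher in LY6D+ libraries in 5 of 6 pairs (0.43 ± 0.26), with -0.95 in Sca1-high mouse 1 as the exception. Ptprc encodes CD45, an antigen of immune cells that the sort excluded. It was lower in LY6D+ libraries in 5 of 6 pairs (-0.75 ± 0.34), most in the luminal pairs, at -1.93 (mouse 4) and -1.98 (mouse 5). Pecam1 encodes the endothelial antigen CD31, also excluded, and was lower in 4 pairs, with -2.73 in Sca1-high mouse 1, and higher in luminal mouse 5 (0.70) and Sca1-high mouse 5 (1.02). None of these passed the test across genes (adjusted p = 0.998 each, limma). Transcripts of the excluded antigens were present: Ptprc signal ran from 3.25 to 8.90 (luminal LY6D- mouse 5), against a table median of 3.90. Pecam1 ran from 4.43 to 9.58 (Sca1-high LY6D- mouse 1), with 9.16 in the Sca1-high LY6D+ library of mouse 5. Ly6a, which encodes Sca1, was not analysed here.

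**Figure D1:**
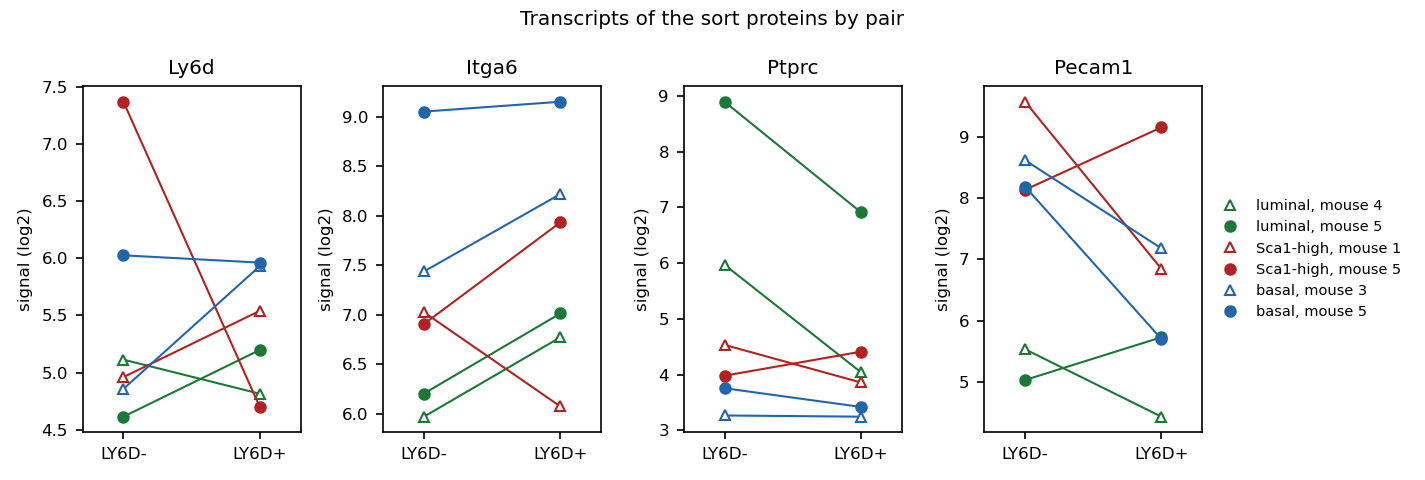
Signal (log2) of Ly6d, Itga6, Ptprc and Pecam1 in the LY6D- and LY6D+ library of each pair, joined by a line; colours are gates, filled circles mouse 5 and open triangles the other mice. Lines for Ly6d go up in 3 pairs and down in 3, with -2.67 in the Sca1-high pair of mouse 5; Itga6 goes up in 5.

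Across all genes, no gene passed the comparison of LY6D+ with LY6D- cells. With limma, the pair as a block and 1 common LY6D effect, 0 of 20135 genes (0%) had a Benjamini-Hochberg adjusted p under 0.05, and the lowest adjusted p was 0.998. At an unadjusted p under 0.05 there were 771 genes (3.83%), 356 higher (1.77%) and 415 lower (2.06%) in LY6D+ cells. The median moderated SE of a difference was 0.18, and 165 genes (0.819%) had a mean difference of at least 1 in either direction. The LY6D difference within a gate and mouse was no larger than the difference between mice: the median absolute difference over genes was 0.303 for the 6 pairs (range 0.258 to 0.390) and 0.345 for 2 mice of the same gate and label (0.277 to 0.494). Per gate, 0 genes passed an adjusted p of 0.05 in the luminal, Sca1-high or basal cells, and 952 (4.73%), 704 (3.50%) and 661 (3.28%) had an unadjusted p under 0.05.

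Few genes kept 1 direction in all pairs. Signal was higher in the LY6D+ library of all 6 pairs for 292 genes (1.45%) and lower in all 6 for 280 (1.39%), 572 in all (2.84%). By random signs alone, a share of 0.03125 of genes would keep 1 direction over 6 pairs, and 2.84% is not above that. The mean difference was above 0 for 49.9% of genes. At least 5 of 6 pairs were higher for 2141 genes (10.6%) and lower for 2073 (10.3%). Differences of at least 0.5 in every pair were found for 1 higher gene (0.00497%), Bex2, and 2 lower genes (0.00993%), Nupr1 and Xaf1. The pair differences hardly correlated with each other across genes, with Pearson r between -0.178 and 0.117 (median -0.009) over the 15 combinations of pairs. Genes are not independent replicates, and pairs of mouse 5 share an animal.

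**Figure D2:**
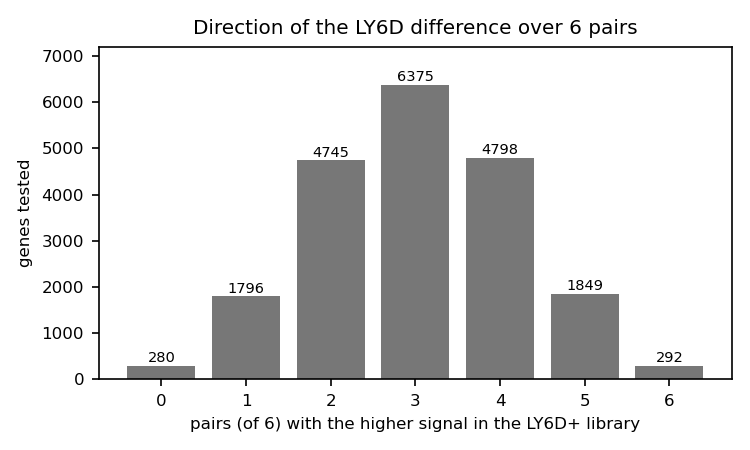
Number of genes tested (y axis) by the number of pairs, of 6, in which the LY6D+ library had the higher signal (x axis). The bars are close to symmetric around 3 pairs (6375 genes), with 280 genes at 0 pairs and 292 at 6.

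The genes below had the smallest unadjusted p among those of 1 direction in all 6 pairs and with a mean signal above the table's median (3.90). For these genes the direction was part of the choice, so their counts of pairs are a description. All 30 had an adjusted p of 0.998 (limma). No gene named in the text passed an adjusted p of 0.05 under any alternative fit (limma, lowest 0.363 over 78 named genes). The 6 LY6D+ and 6 LY6D- libraries did not overlap for 18 of all genes (0.0894%), among them Tacc1 and Ifi35 of the 15 lower and none of the 15 higher genes.

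Lowest in LY6D+ relative to LY6D- cells was Cryab, the small heat shock chaperone alpha-B-crystallin. Its signal ran from 5.42 to 10.66 in LY6D+ libraries (median 8.92) and from 8.96 to 11.87 in LY6D- libraries (median 10.57). The pair differences were -2.43 and -2.41 in luminal mice 4 and 5, -2.25 and -3.66 in basal mice 3 and 5, and -1.92 in Sca1-high mouse 5, while Sca1-high mouse 1 showed -0.09 (mean -2.13 ± 0.38). Mgp, a matrix protein that inhibits calcification, lay between 6.06 and 10.03 in LY6D+ (median 8.42) and between 9.21 and 11.40 in LY6D- libraries (median 10.59). Its differences reached -3.15 in luminal mouse 4, -2.51 in basal mouse 3 and -3.34 in basal mouse 5, against -0.44 in Sca1-high mouse 5 (mean -1.95 ± 0.40). Nupr1, a small chromatin protein induced by cell stress, differed by -3.00 in luminal mouse 4 and -3.27 in basal mouse 3, and by -0.80 to -1.91 in the other 4 pairs (mean -1.84 ± 0.36). Its LY6D- libraries were alike, at 7.67 to 8.70, and its LY6D+ libraries spread from 4.40 to 7.73. Sparc, a secreted collagen-binding glycoprotein, stood at a median of 7.44 in LY6D+ and 8.61 in LY6D- libraries (-1.01 ± 0.21).

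Tacc1, a centrosome-associated coiled-coil protein, had the smallest unadjusted p of all genes (3.5e-04). It was between 4.06 and 4.93 in LY6D+ and between 5.18 and 6.14 in LY6D- libraries, with no overlap (-1.11 ± 0.19). Ifi35 encodes an interferon-induced leucine zipper protein and also did not overlap, at 4.79 to 5.33 against 5.42 to 5.87 (-0.64 ± 0.13, with pair differences from -0.96 to -0.41). Xaf1, a pro-apoptotic partner of the inhibitor XIAP, differed by -1.93 to -0.71 in the 6 pairs (mean -1.01 ± 0.18). Zbp1, a sensor of Z-form nucleic acid, had medians of 3.88 and 4.83 (-0.74 ± 0.15). Irgm1, a GTPase of cell-autonomous immunity, had medians of 4.21 and 5.33 (-0.92 ± 0.22). The remaining 6 differed by -0.61 to -0.91: the NF-kappa-B regulator Tnip2, the Ral exchange factor Ralgds, the Rab regulator Dennd5a, the myotubularin-related Mtmr12, the inner nuclear membrane protein Tor1aip1 and the sorting nexin Snx10.

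Promoters were examined for the core of the interferon-stimulated response element, because several of the lower genes are known interferon targets; the motif was chosen after their values were seen. The letters searched were GAAA, any 2 bases and GAAA again, on either strand (TTTC, any 2 bases, TTTC on the other), in the 250 bases before the start site in RefSeq's GRCm38.p6 annotation. Of the 15 lower genes 11 matched a promoter entry and 2 of these held the motif, Snx10 and Irgm1, the latter with 2 overlapping matches. Their last 100 bases before the start site are shown 5′ to 3′ on the gene's strand, with matches in capitals, at chr6:51524160-51524259 (plus strand) for Snx10 and chr11:48871421-48871520 (minus strand) for Irgm1.
Snx10: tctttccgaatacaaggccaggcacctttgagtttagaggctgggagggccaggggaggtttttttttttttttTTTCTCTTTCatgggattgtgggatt
Irgm1: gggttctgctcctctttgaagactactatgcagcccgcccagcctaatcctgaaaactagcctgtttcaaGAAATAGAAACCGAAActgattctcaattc
Over the 280 genes lower in all 6 pairs, 7 of 230 with an entry (3.04%) held the motif, as did 5 of 219 (2.28%) of those higher in all pairs and 499 of 15520 (3.22%) of all genes tested. The share among lower genes was thus close to that of all genes. A match is only a run of letters in this window.

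On the higher side, Bex2, a small adaptor protein of the brain-expressed X-linked family, led the 15 genes by unadjusted p (6.1e-04). Its signal was between 3.58 and 6.54 in LY6D+ (median 4.89) and between 2.58 and 5.08 in LY6D- libraries (median 3.55), with pair differences from 0.55 in basal mouse 5 to 2.03 in luminal mouse 4 (mean 1.15 ± 0.21). The groups overlapped, with Sca1-high LY6D- cells of mouse 1 at 5.08 and basal LY6D+ cells of mouse 5 at 3.58. Hif1a, the oxygen-regulated subunit of hypoxia-inducible factor, was higher by 0.05 to 1.45 (mean 0.83 ± 0.22). Its difference was smallest in the basal and Sca1-high pairs of mouse 5 (0.05 and 0.16). Gclc, the catalytic subunit of the enzyme that limits glutathione synthesis, was higher by 0.26 to 2.17 (mean 0.97 ± 0.26).

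Among the other higher genes were the nucleoporins Nup153 (0.68 ± 0.16) and Nup50 (0.52 ± 0.14), the splicing factor Sf3b5 (0.89 ± 0.19), the mRNA export subunit Thoc2 (0.80 ± 0.17) and the ribosome assembly factor Noc4l (0.79 ± 0.21). Their signals overlapped between LY6D+ and LY6D- libraries. For Nup153, basal mouse 3 differed by only 0.05 and luminal mouse 4 by 1.15. The chromatin remodelling subunit Smarce1 (0.86 ± 0.19), the exocyst subunit Exoc5 (1.12 ± 0.27), the ubiquitin-conjugating enzyme Ube2b (0.98 ± 0.24, with 0.01 in luminal mouse 5), the SMAD corepressor Skil (0.72 ± 0.18) and the RING finger protein Lonrf3 (0.61 ± 0.16) were also among the 15. The remaining 2 were the olfactory receptor gene Olfr726 (0.71 ± 0.14) and the predicted gene Gm38418 (1.19 ± 0.28).

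Ranked instead by the pair with the smallest difference, the higher genes were Bex2 (at least 0.55 in each pair), Thoc2 (0.39), Gm2027 (0.34), Smarce1 (0.33) and Uhrf1bp1l (0.33). Gm2027, a predicted gene, lay near the lower quartile of the table, at 3.06 to 3.41 in LY6D+ and up to 3.03 in LY6D- libraries. By the same rank the lower genes were Nupr1 (-0.80 or below in each pair), Xaf1 (-0.71), Mgp (-0.44), Ifi35 (-0.41) and Tor1aip1 (-0.39).

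**Figure D3:**
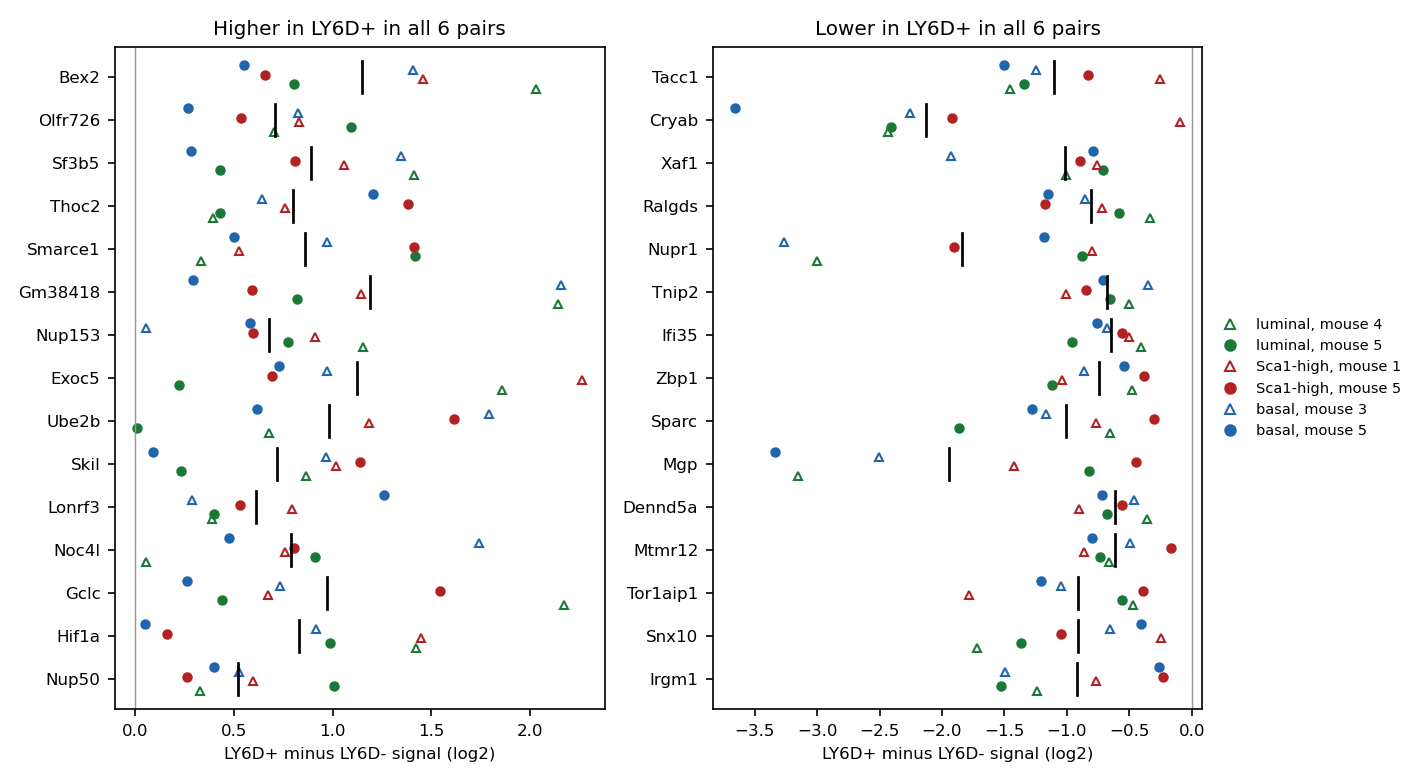
Difference in signal (LY6D+ minus LY6D-, log2) of the 15 higher and 15 lower genes of smallest unadjusted p, 1 point per pair (colours are gates, filled circles mouse 5, open triangles the other mice) and a black bar at the mean. All points lie on 1 side of 0 by the choice of genes; Cryab spans -3.66 to -0.09 and Ifi35 only -0.96 to -0.41.

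Genes of basal epithelium were more often on the higher side in LY6D+ cells, though not in every pair. Krt5, whose probe sets carry several symbols, was not tested. Of 18 such genes tested, 14 had a positive mean difference (median 0.33, or 0.53 without the Sca1-high pair of mouse 5, against -0.0004 over all genes), 6 were higher in at least 5 of 6 pairs (33.3%, against 10.6% of all genes) and 0 were lower in at least 5 (10.3% of all genes). None passed over all genes. The list median was 0.75 and 0.82 in the luminal, 0.27 and -0.55 in the Sca1-high (mice 1 and 5) and 0.84 and 0.01 in the basal pairs (mice 3 and 5). The keratin of basal cells Krt14 was 9.87 and 10.31 in LY6D+ luminal cells of mice 4 and 5, and 4.98 and 6.99 in their LY6D- cells. In the basal gate it was 11.65 and 11.69 in LY6D+ cells of mice 3 and 5, against 10.19 and 11.47. In Sca1-high cells the mice went opposite ways, at 10.40 against 8.96 in mouse 1 and 7.89 against 10.41 in mouse 5. The mean difference of Krt14 was 1.47 ± 0.82, and 2.27 without the Sca1-high pair of mouse 5. Krt15, a keratin of basal and stem-like epithelial cells, had pair differences of 3.30 and 3.31 in the luminal gate, 3.65 in Sca1-high mouse 1, 1.46 and 0.33 in the basal gate, and -1.90 in Sca1-high mouse 5 (mean 1.69 ± 0.70, and 2.41 without that pair).

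Col17a1, a collagen of hemidesmosomes, was higher by 1.12 and 0.85 in the luminal and 0.95 and 0.15 in the basal pairs, by 0.59 in Sca1-high mouse 1, with -0.17 in Sca1-high mouse 5 (mean 0.58 ± 0.19). Lamb3, a chain of the anchoring laminin, showed the same division by pair, with 0.19 to 1.21 in 5 pairs and -0.53 in the sixth (0.37 ± 0.22). Perp, a desmosomal membrane protein, differed by 3.52 in luminal mouse 4, between 0.67 and 1.14 in 4 pairs, and by -1.26 in Sca1-high mouse 5 (1.03 ± 0.50). Of 18 hemidesmosome and desmosome genes, 5 were higher (27.8%, against 10.6% of all genes) and 1 lower (5.56%, against 10.3%) in at least 5 pairs. Col17a1, Lamb3 and Itga6, among the 5 higher, are also on the basal list. Without the Sca1-high pair of mouse 5, whose LY6D+ library had the low Krt8 and Krt18 signals above, 5 of 18 basal genes were higher in all 5 remaining pairs: Krt14, Krt15, Col17a1, Lamb3 and Egfr (mean 0.63, against 0.06 over 6 pairs). That is 27.8%, against 3.48% of all genes, and again none passed over all genes. Over all 6 pairs, 0 of 18 were higher in every pair (1.45% of all genes). All 5 of these genes were lower in the pair left out, so the share without it is only a description. Probes for related keratins can cross-react, which was not tested here.

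**Figure D4:**
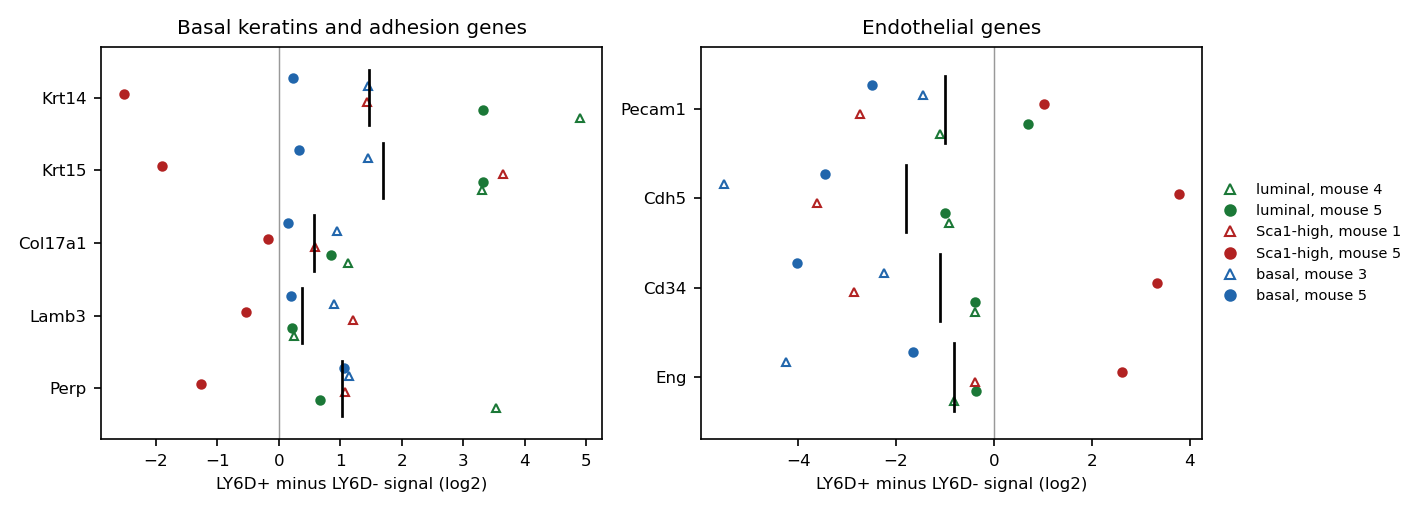
Difference in signal (LY6D+ minus LY6D-, log2) of 5 basal keratin and adhesion genes and 4 endothelial genes, 1 point per pair and a black bar at the mean; colours are gates, filled circles mouse 5, open triangles the other mice. The Sca1-high pair of mouse 5 lies on the opposite side of 0 from the other 5 pairs for Krt14 (-2.52), Krt15 (-1.90) and Perp (-1.26), and for Cdh5 (3.79), Cd34 (3.32) and Eng (2.62).

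Of 14 luminal epithelial genes 6 were positive, with 2 higher and 1 lower in at least 5 pairs, beside 10.6% and 10.3% of all genes. Their median was -0.03, and 0.19 without the Sca1-high pair of mouse 5. Elf3, an epithelial ETS factor, was higher in 5 of 6 pairs, by up to 1.47 in basal mouse 5, with -0.44 in luminal mouse 4 (0.58 ± 0.26). The lower member, Hoxb13, was lower in 5 of 6 pairs, with 0.72 in basal mouse 5 (-0.30 ± 0.21). The luminal list's median was 0.41 over the pairs of mice 1, 3 and 4 and -0.51 over those of mouse 5. Genes of the secretory protein list were more often on the lower side, with 4 of 19 positive (median -0.17, and -0.08 without the Sca1-high pair of mouse 5). In at least 5 pairs 4 were lower (21.1%, against 10.3% of all genes) and 1 higher. The 4 lower genes included Nupr1, described above as a chromatin protein, which the progenitor list below also holds. Spink1, a secreted trypsin inhibitor, was lower in 5 of 6 pairs, at -1.30 to -0.23, with 0.12 in basal mouse 5 (-0.59 ± 0.21). Sbpl, a spermine-binding protein-like gene, was lower in all 6, at -0.93 to -0.02 (-0.44 ± 0.16).

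Markers of proximal luminal progenitors, a list that holds Ly6d itself, were divided: 5 of 10 were positive (median 0.02, and 0.29 without the Sca1-high pair of mouse 5), 2 higher and 2 lower in at least 5 pairs. Clu, an extracellular chaperone, was higher in 5 pairs (0.41 ± 0.20), with -0.22 in Sca1-high mouse 5, and so was the copper carrier Cp (0.44 ± 0.21), with -0.58 in Sca1-high mouse 1. The 2 lower members were Nupr1, given above and lower in all 6 pairs, and Basp1. Basp1 was lower in 5 pairs, with 0.92 in basal mouse 3 (-0.51 ± 0.29, and -0.32 without the Sca1-high pair of mouse 5). Among 26 genes of the LY6/uPAR family, 3 were higher and 1 lower in at least 5 pairs, and the median was 0.04. The shares over all genes were 10.6% higher and 10.3% lower. Lypd6, a modulator of Wnt and acetylcholine receptors, was higher in all 6 by a little, 0.08 to 0.60 (0.27 ± 0.13). Cd59a, which protects cells from complement, was lower in all 6 pairs: its signal was 3.16 to 4.26 in LY6D+ and 3.58 to 7.15 in LY6D- libraries. The difference was -2.61 and -2.89 in the luminal pairs and -3.49 in Sca1-high mouse 1, but -0.98 and -0.04 in the basal pairs and -0.61 in Sca1-high mouse 5 (mean -1.77 ± 0.46, unadjusted p = 0.00461, limma).

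Squamous and defence genes gave single members of 1 direction, beside 10.6% of all genes higher and 10.3% lower in at least 5 pairs. In the squamous list 14 of 20 were positive (median 0.06, and 0.10 without the Sca1-high pair of mouse 5), 4 were higher and 2 lower in at least 5 pairs. The cornified envelope gene Lor was higher by 0.37 to 1.02 in 5 pairs, with -0.38 in Sca1-high mouse 5 (0.60 ± 0.20), and Krt6a differed most in basal mouse 3 (2.25, mean 0.68 ± 0.28). Of 12 mucosal defence genes, 9 were positive (median 0.11), 2 higher and 2 lower in at least 5 pairs. Lcn2, an iron-siderophore binding protein, was higher by 1.47 and 1.41 in the luminal pairs and by 0.44 to 0.92 in 3 others, with -0.42 in Sca1-high mouse 5 (0.75 ± 0.25). Pigr, the receptor that carries immunoglobulin A across epithelium, was lower in all 6, at -1.66 to -0.05 (-0.78 ± 0.21).

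Markers of cells outside the prostate epithelium also differed within pairs, and fewer cells of a type cannot be told apart here from less RNA per cell. Of 19 endothelial genes, 18 had a negative mean difference (median -0.32). Only 3 were lower in at least 5 pairs (15.8%, against 10.3% of all genes): Cdh5, Cd34 and Eng. The list mean was 4.54 and 4.61 in LY6D+ basal cells of mice 3 and 5 and 6.76 and 6.66 in their LY6D- cells. In Sca1-high cells it was 5.82 against 7.09 in mouse 1 and 7.45 against 5.97 in mouse 5. In luminal cells it was 4.38 against 4.53 in mouse 4 and 4.66 against 4.38 in mouse 5. The list's median pair difference was thus above 0 in luminal mouse 5 (0.45) as well as in Sca1-high mouse 5 (0.73). Cdh5, the junctional cadherin of endothelium, differed by -5.52 and -3.45 in the basal pairs, -3.62 in Sca1-high mouse 1, -0.92 in luminal mouse 4 and by little more in luminal mouse 5 and 3.79 in Sca1-high mouse 5 (-1.79 ± 1.04). Without the last pair its mean was -2.90 and the list median -0.92, and these 3 genes were lower in all 5 pairs, as were 3.24% of all genes. In the pair left out these 3 genes were higher, and over all 6 pairs 0 of the 19 were lower in every pair. The summed linear signal of the list ranged from 476 to 14415 in LY6D+ and from 479 to 9189 in LY6D- libraries, and every member was above the table's median on some array.

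The lymphoid list differed most in luminal mouse 5, where its median difference was -1.28, against 0.02 in luminal mouse 4. Cd3e, a list member given as an example, differed by -3.06 in luminal mouse 5 and by 0.04 in luminal mouse 4. It was higher in LY6D+ in 3 of 6 pairs. Xcl1, a chemokine of cytotoxic lymphocytes, was 10.69 and 8.75 in LY6D- luminal cells of mice 4 and 5 and 4.38 and 4.39 in their LY6D+ cells. The other 8 arrays lay between 3.79 and 4.66. The interleukin receptor chain Il2rb differed by -1.07 and -3.74 in the luminal pairs and by -0.38 to 0.06 elsewhere (-0.90 ± 0.47). The lymphoid list (19 genes, 14 with a negative mean) had a summed signal of 347 to 1808 in LY6D+ and 316 to 5600 in LY6D- libraries, lower in LY6D+ in 4 of 6 pairs; Ms4a1 and Klrd1 stayed under the table's median throughout. Myeloid genes were divided, with 9 of 21 on the lower side, and their list mean differed most in Sca1-high mouse 5 (4.64 against 5.32). In at least 5 pairs 5 were higher (23.8%, against 10.6% of all genes) and 4 lower (19.0%, against 10.3%). Their summed signals were 663 to 6279 in LY6D+ and 510 to 6862 in LY6D- libraries. Fcer1g, an Fc receptor chain, differed by -3.96 in Sca1-high mouse 5 and was lower by less in 4 others (-1.13 ± 0.49, and -0.56 without that pair), whereas the co-stimulatory Cd86 was higher in 5 pairs (0.52 ± 0.23).

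Antigen presentation genes had the lower list mean in the LY6D+ library of all 6 pairs, but the lower summed signal in only 4 of 6. The sums ran from 8386 to 16738 in LY6D+ and from 7206 to 17512 in LY6D- libraries, H2-DMb1 stayed under the table's median throughout, and the median pair difference was just above 0 in Sca1-high mouse 5 and basal mouse 3. Of 15 genes 13 had a negative mean (median -0.27), 4 were lower in at least 5 pairs (26.7%, against 10.3% of all genes) and 0 were higher. H2-Eb1, a class II chain, was 6.77 against 7.77 and 7.55 against 9.30 in the luminal pairs and differed by -0.46 to -0.03 in the other 4 (-0.68 ± 0.22). The immunoproteasome subunit Psmb8 was lower in 5 pairs, to -1.05 in Sca1-high mouse 1, and higher by 0.37 in Sca1-high mouse 5 (-0.54 ± 0.20). H2-Aa was lower in 5 pairs (-0.45 ± 0.23). Over the pairs of mouse 5 alone the list median was -0.07. The interferon response list, which does not hold Ifi35, Xaf1, Zbp1 or Irgm1, had 5 of 17 members positive (median -0.18), 1 higher and 3 lower in at least 5 pairs, among them the signal transducer Stat2 (-0.60 ± 0.24, with -1.76 in luminal mouse 5). The lower Ptprc and Xcl1 signals of LY6D+ luminal cells, and the lower lymphoid list in luminal mouse 5, stand beside these values. Their part in these values was not tested.

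**Figure D5:**
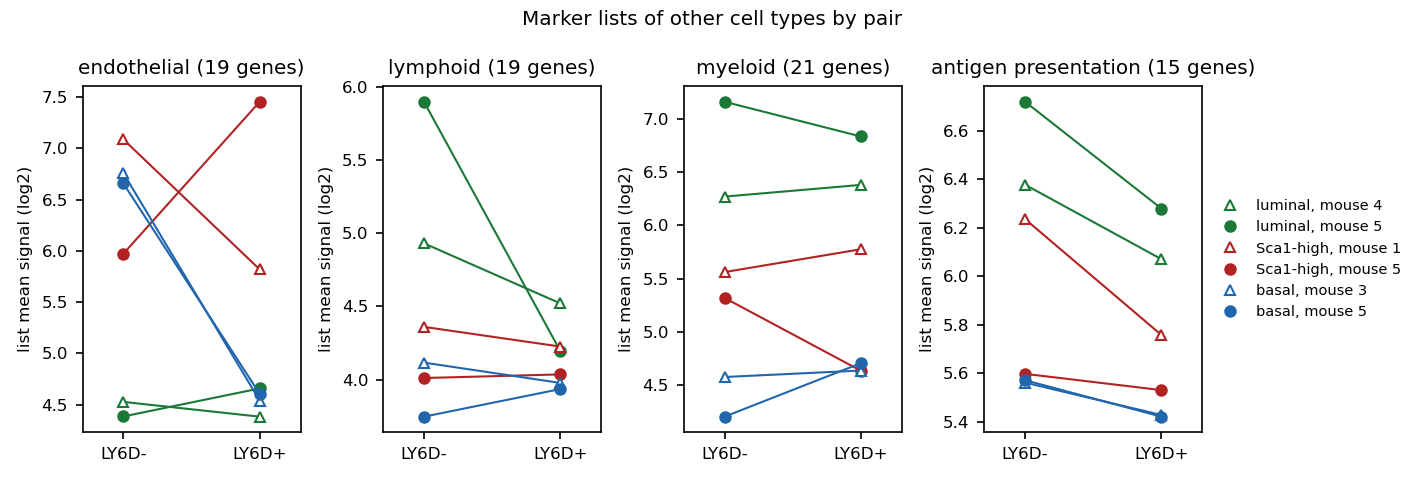
Mean signal (log2) of 4 marker lists in the LY6D- and LY6D+ library of each pair, joined by a line; colours are gates, filled circles mouse 5, open triangles the other mice. The endothelial mean drops from 6.76 to 4.54 and from 6.66 to 4.61 in the basal pairs and climbs from 5.97 to 7.45 in Sca1-high mouse 5; the antigen presentation mean is lower in LY6D+ in all 6 pairs.

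Stromal and other marker lists were examined in the same way, beside the 10.3% of all genes lower in at least 5 pairs. Fibroblast genes had 14 of 17 on the lower side (median -0.13, and -0.20 without the Sca1-high pair of mouse 5), 3 lower in at least 5 pairs, and summed signals of 2136 to 3659 in LY6D+ and 1539 to 3669 in LY6D- libraries. Mgp and Sparc, named above, are also expressed by fibroblasts and endothelium and were in none of the lists; the part of these cells in their differences was not tested. Smooth muscle genes were divided 6 to 6, with sums of 347 to 596 and 317 to 1043. Seminal vesicle genes (7 of 9 positive) had sums of 5972 to 36547 and 2568 to 36123. Their list mean was 6.83 against 9.39 in Sca1-high mouse 5 and higher in LY6D+ cells of both basal pairs, at 7.39 against 6.24 (mouse 3) and 10.13 against 8.38 (mouse 5). Sums were, for urothelial genes (7 of 11 positive), 242 to 1209 and 281 to 930, with Krt20 under the table's median throughout, and, for neuroendocrine genes (5 of 9 positive), 182 to 274 and 160 to 278. Of the erythroid list 3 genes were tested, with sums of 54.6 to 73.4 and 49.2 to 74.0.

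Pathway lists gave few members of 1 direction. Over all genes, 10.6% were higher and 10.3% lower in at least 5 pairs. Androgen response genes had a median of 0.02 (0.08 without the Sca1-high pair of mouse 5), with 0 higher and 4 of 16 lower in at least 5 pairs (25.0%). Zbtb16, a zinc finger repressor induced by steroids, was lower in all 6, at -0.95 to -0.20 (-0.49 ± 0.15), and the fatty acid elongase Elovl5 in 5, with -2.10 in basal mouse 3 (-0.92 ± 0.32). Of 12 heat shock genes 1 was higher and 2 were lower in at least 5 pairs: Hspb8 (0.44 ± 0.17), Bag3 (-0.42 ± 0.18, and -0.28 without the Sca1-high pair of mouse 5) and Cryab. The median of the list was -0.02, and -0.19 without that pair. In the immediate early list 6 of 22 were positive, and the median of -0.15 turned to 0.06 without the Sca1-high pair of mouse 5. Fos was lower in all 6 pairs, at -0.64 to -0.10 (-0.34 ± 0.13), and the YAP target Ccn2 was higher in 5 (0.45 ± 0.17). The endoplasmic reticulum chaperone Calr was lower in all 6, most in Sca1-high mouse 5 (-1.74, mean -0.64 ± 0.21, and -0.42 without that pair), in a list with 11 of 19 positive. Insig1, which holds back cholesterol synthesis, was higher in all 6, by 0.05 to 1.07 (0.58 ± 0.17), where 7 of 16 genes of that pathway were positive.

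For Wnt genes the median was 0.0002 (0.03 without the Sca1-high pair of mouse 5), and 3 of 19 were lower in at least 5 pairs, among them the transcription factor Lef1 (-0.40 ± 0.16). Notch genes had 3 of 17 higher and 1 lower in at least 5 pairs, stem and progenitor factors 3 and 2 of 17, with the retinoid enzyme Aldh1a1 at -3.33 in luminal mouse 4 (-0.95 ± 0.45). Claudins and tight junction genes had 3 of 17 higher, among them Cldn8, which differed by 2.39 in both luminal pairs and by -0.39 to 0.43 elsewhere (0.87 ± 0.40). Cell cycle (1 and 1 of 23), ribosomal protein (0 and 1 of 25), respiratory chain (1 and 3 of 23) and EGF family genes (2 and 1 of 15) gave these counts of members higher and lower in at least 5 pairs. The same shares over all genes were 10.6% and 10.3%.

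Since mouse 5 gave 1 pair in every gate, its 3 pairs were set beside those of mice 1, 3 and 4. In mouse 5, 3326 genes (16.5%) were higher and 1988 (9.87%) lower in all 3 pairs; in the other mice it was 2350 (11.7%) and 3560 (17.7%). Of the genes higher in all 3 pairs of mouse 5, 8.78% were also higher in all 3 pairs of the other mice and 20.6% were lower in all 3. Of those higher in the other mice, 12.4% were higher in mouse 5. The shares for lower genes were 14.1% of the mouse 5 genes and 7.87% of the genes of the other mice. For genes of the same direction in both, each of these shares was below that over all genes tested. With the arrays centred on their medians, 606 genes kept 1 direction in all 6 pairs, 435 of them shared with the 572 above.

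The LY6D difference itself was also compared between gates. In an F test of the 2 differences between gate-specific effects, 0 of 20135 genes (0%) passed an adjusted p of 0.05 (limma), and 765 (3.80%) had an unadjusted p under 0.05. The 5 genes of smallest p differed most in 1 gate, in both of its mice. Spinkl, a Kazal-type secreted protease inhibitor, was at 6.19 and 4.32 in LY6D+ Sca1-high cells and at 11.87 and 11.62 in their LY6D- cells, a gate difference of -6.49 ± 0.46, against 0.34 in the luminal and 1.68 in the basal gate (adjusted p = 0.352). Fam136a, a mitochondrial protein, was higher in LY6D+ luminal cells by 3.57 and 4.14, and differed by -0.79 to 0.58 in the other gates (adjusted p = 0.611). Xcl1, given above, differed by -5.33 ± 0.47 in the luminal gate. The precursor gene Mir1191 was higher in LY6D+ basal cells by 3.56 and 2.71, and differed by -0.74 to 0.27 in the other gates. Serp1, a membrane protein that protects proteins in the endoplasmic reticulum, differed by -2.63 and -2.91 in Sca1-high cells and differed by -0.81 in the luminal and 0.26 in the basal gate. These genes were chosen by the same test, and their adjusted p lay between 0.352 and 1.000.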

How the data were processed

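The deposited table holds log2 signals from gene arrays of 12 sorted populations, for which the submitters' processing notes name oligo and RMA, a method of background correction, quantile normalization and probe summary; versions are not given in the sources used here. Per the labels, RNA was amplified before hybridization, so signals are relative. Probe sets were named from the platform annotation: of 41345, 23521 had 1 symbol, 1814 several and 16010 none listed. The brightest single-symbol probe set stood for each of 22180 genes, and 20135 genes with at least 2 arrays above the table's lower quartile (2.98) were tested.

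R 4.3.3 and limma 3.58.1 (lmFit, eBayes) fitted 1 LY6D effect with the pair as a fixed block and Benjamini-Hochberg adjustment at 0.05, and a second model with 3 gate-specific effects. Same-numbered libraries of a gate come from the same mouse, per the labels, which is the source of the pairing; their deviations from group means correlated at 0.0220 (luminal), 0.149 (Sca1-high) and 0.407 (basal). Pairs of mouse 5 share an animal, so the 6 pairs represent 4 mice, and p-values measure the spread between these pairs. The fits were tested on simulated data. The members and gene lists were chosen with earlier results of these data known. Differences were given for genes chosen by rule, other than Cd3e, which was given as an example of its list. The rules took sort genes and up to 15 a direction of 1 sign in all 6 pairs by smallest p. They also took up to 4 members a list with 1 sign in at least 5 pairs. The last were the 5 of smallest F test p and 5 a direction by their smallest pair difference. Not every gene so chosen is printed. The alternatives changed the block, scale, filter, variance model, probe sets, mice, pairs and gates. The number of arrays limits the precision.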

Additional observations from a re-analysis of the deposited data

Results flagged for a closer look

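Among the 6 pair differences of 78 genes and 32 list medians (110 tested), 7 had 1 pair far from the other 5 by the 95% limit of Dixon's test of a single far value. That limit flags about 1 in 20 where values are independent, normal and not preselected. Most of these genes were chosen by the same pair differences, and lists share members with them, so that rate does not apply here. Ly6d had -2.67 in Sca1-high mouse 5, against -0.30 to 1.08 in the other pairs. Calr had -1.74 in the same pair, against -0.74 to -0.24. In basal mouse 3, Xaf1 had -1.93 (others -1.01 to -0.71), Uhrf1bp1l 2.02 (others 0.33 to 0.82) and Krt6a 2.25 (others -0.13 to 0.63). In luminal mouse 5, Il2rb had -3.74 (others -1.07 to 0.06) and the lymphoid list median was -1.28 (others -0.18 to 0.20).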

How the results depend on the processing

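The count of genes past an adjusted p of 0.05 (limma) was 0 in all 21 alternative fits, with 496 to 1312 genes at an unadjusted p under 0.05. Without the pairing (no replicate block) it was 0, with 528 at an unadjusted p under 0.05, and the F test between gates also gave 0. The 572 genes of 1 direction in all pairs became 1071 to 1354 when 1 pair was left out, where fewer pairs had to share a direction. They became 2286, 2488 and 2182 without the luminal, Sca1-high and basal gate, 360 with at least 6 arrays above the table's median, and 3 with at least 0.5 in every pair. Over 3 pairs alone they were 5314 (mouse 5) and 5910 (mice 1, 3 and 4), an alternative chosen after seeing the data. Of 1404 values of 78 named genes 10 turned direction. Ly6d became 0.16 with 1 difference per mouse, 0.45 in mice 1, 3 and 4, 0.32 without the Sca1-high gate, and -0.37 to 0.38 when 1 pair was left out, the latter without Sca1-high mouse 5. In mouse 5 alone Lamb3 was -0.0386 and Eng 0.20. Xcl1 was 0.0060 without the luminal gate, Spinkl 1.01 without the Sca1-high gate, and Eng 0.26 and Mir1191 -0.23 without the basal gate. Of 416 list medians 12 moved by more than the spread between pairs, in 8 lists.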

Other observations

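Probe sets without a single gene symbol gave the same count: of 13937 tested, 0 passed an adjusted p of 0.05 (limma), and 560 (4.02%) had an unadjusted p under 0.05.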
